A study of Homo sapiens with 2 samples.

Results

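Metallothioneins are small, cysteine-rich proteins that bind zinc, copper and other metal ions. They were followed here as 7 genes, MT1E, MT1F, MT1G, MT1M, MT1X, MT2A and MT3, taken by name from the 32742 genes of a single-cell expression table. Of the 7 genes, 5 had at least 50 unique molecular identifiers (UMIs, 1 per captured transcript) over both libraries and received a ratio. MT1E and MT1M did not. The table holds WaGa, an established line of Merkel cell carcinoma, a neuroendocrine skin cancer, grown in suspension. It was profiled with a droplet method that reads the 3′ ends of transcripts. One library came from cells that received no treatment and 1 from cells given domatinostat, an inhibitor of class I histone deacetylases, the enzymes that remove acetyl groups from histones. The dose, the time of treatment and any solvent in the control are not given in the sources used here. Each group is a single library of 1 cell line, so no test between conditions was possible and every interval covers counting error only.

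In cells, metallothioneins buffer free zinc and take up excess metal. Their genes lie side by side on the long arm of chromosome 16 and are switched on by MTF1, a zinc-sensing transcription factor that binds short metal response elements in their promoters. MT2A and the MT1 genes are made in most tissues. MT3 was first described in brain, and MT4 belongs to stratified epithelium.

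There were 4137 cells with 45562976 UMIs under the untreated label and 6679 cells with 60160108 UMIs under the treated label. The median cell had 11125 and 8578 UMIs. The group of a cell rests on the treatment word in its name alone. CDKN1A, a cell cycle inhibitor gene that inhibitors of this class are known to raise, had 97.9 CPM (UMIs scaled to 1000000 per library) in the first and 39.4 in the second, so the libraries are called by their labels, untreated-labelled and treated-labelled. All 11 Merkel and neuroendocrine markers checked were measured, and they summed to 3009 and 2903 CPM. Their ratios lay on both sides of 1, 6 above and 5 below, from KRT18 at 0.525 and KRT8 at 0.601 to CHGA at 1.38 and SOX2 at 1.57, with KRT20 at 0.839. Markers of other cell types were summed per list, from the untreated-labelled library to the treated-labelled library. Keratinocyte markers went from 403.5 to 358.9 CPM, fibroblast markers from 29.3 to 18.0, B cell markers from 9.88 to 4.49, myeloid markers from 2.98 to 1.58 and melanocyte markers from 4.70 to 0.981. Nearly all of the keratinocyte sum was KRT10, at 310.6 and 313.2 CPM, and SFN, at 88.3 and 42.9. Endothelial markers had 6.56 and 6.60 CPM and T cell markers 0.0219 and 0.0332 CPM. TP63, COL3A1, CD3D, CD2, MS4A1, TYR and CDH5 were at 0 UMIs in both. The part of these markers in the values below was not tested.

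The promoters are shown first, because metal response elements are the feature through which these genes are usually described as a group. RefSeq (GRCh38.p14) gave the sequence for 2 of the 7 genes, MT2A and MT1X, which were the most strongly expressed, and for the scarcely detected MT1H, MT1B and MT4. The windows are the 250 bases before the start of the gene, on the plus strand. Capitals mark matches to the core letters of the element, TGCACNC or TGCGCNC, on either strand.
MT2A, chr16:56608334-56608583: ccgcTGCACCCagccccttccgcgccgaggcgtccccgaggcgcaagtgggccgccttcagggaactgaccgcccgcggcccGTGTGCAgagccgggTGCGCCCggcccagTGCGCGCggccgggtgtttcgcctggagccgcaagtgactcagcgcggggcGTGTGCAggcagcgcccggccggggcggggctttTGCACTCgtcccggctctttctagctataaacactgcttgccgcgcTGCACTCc
MT1X, chr16:56682220-56682469: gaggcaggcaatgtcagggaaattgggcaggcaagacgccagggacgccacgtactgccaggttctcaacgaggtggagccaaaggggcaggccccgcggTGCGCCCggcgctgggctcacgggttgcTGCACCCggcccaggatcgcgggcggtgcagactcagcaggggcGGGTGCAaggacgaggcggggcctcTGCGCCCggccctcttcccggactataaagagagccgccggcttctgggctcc
MT1H, chr16:56669564-56669813: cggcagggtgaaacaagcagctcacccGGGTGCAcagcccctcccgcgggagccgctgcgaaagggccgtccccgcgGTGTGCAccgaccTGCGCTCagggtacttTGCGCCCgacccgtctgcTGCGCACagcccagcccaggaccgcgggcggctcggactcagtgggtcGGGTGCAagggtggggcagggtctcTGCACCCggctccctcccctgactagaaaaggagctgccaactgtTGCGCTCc
The MT2A window held 7 matches, 5 to TGCACNC and 2 to TGCGCNC, with the nearest beginning 8 bases before the start. MT1X held 4 matches, beginning 150, 122, 78 and 53 bases before the start. MT1H held 8, and those beginning 78 and 53 bases before the start stood at the same distances as in MT1X. MT1B and MT4, not printed, held 3 each. Among 35116 RefSeq promoter windows of this length, 9.87% held TGCACNC and 16.8% held TGCGCNC. In all, 24.8% held at least 1 match to either, 1.58% at least 3, 0.370% at least 4 and 0.0313% at least 7. The bases G and C made up 62.4% (MT1B) to 73.2% (MT2A) of the 5 metallothionein windows. The background windows were not matched for this content. Across these 5 windows the number of matches did not follow the transcript level, since MT1H had the most and only 5 UMIs. A match is a string of letters and not a measured binding site.

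The 5 well-detected genes were not all neighbours: MT3 and MT2A lay side by side, MT1F and MT1G lay side by side, and MT1X stood alone, with scarcely detected genes between. In chromosomal order the table held MT4, MT3, MT2A, MT1E, MT1M, MT1A, MT1B, MT1F, MT1G, MT1H and MT1X. MT2A was the highest, with 459.7 CPM (95% exact Poisson interval 453.5 to 466.0) in the untreated-labelled library and 291.8 CPM (287.5 to 296.2) in the treated-labelled library. MT1X, at the far end, had 176.9 CPM (173.1 to 180.8) and 146.1 CPM (143.1 to 149.2). Both genes were among the better expressed of the region in both libraries.

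MT1G and MT1F stood in opposite order in the 2 libraries. MT1G had 61.9 CPM (59.7 to 64.2) in the untreated-labelled library and 28.5 CPM (27.2 to 29.9) in the treated-labelled library. MT1F had 50.3 CPM (48.3 to 52.4) and 39.6 CPM (38.1 to 41.3). The order was thus MT2A, MT1X, MT1G, MT1F and MT3 in the untreated-labelled library, and MT2A, MT1X, MT1F, MT1G and MT3 in the treated-labelled one. No 2 neighbours in either order had overlapping counting intervals. MT3 was the lowest of the measured genes, with 9.83 CPM (8.94 to 10.8) and 2.63 CPM (2.23 to 3.07). UMIs count 3′ ends, so these levels need no division by transcript length.

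The genes between MT2A and MT1F were close to or at 0. MT1E had 0 UMIs in the untreated-labelled library and 1 in the treated-labelled library. MT1M had 0 UMIs in both, a result that, at 3 cells for a count of 0, still allows up to 0.0725% of the 4137 and 0.0449% of the 6679 cells to carry a UMI. MT1A had 1 and 0 UMIs, and MT1B had 0 and 0. At the other positions, MT1H had 5 and 0 UMIs and MT4 had 3 and 9. The intronless copy MT1HL1, on another chromosome, had 0 in both. These counts were too few for a ratio.

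Because these genes resemble each other, reads could be split among them or left uncounted. The last 400 bases of each GENCODE 29 transcript were compared with the transcripts of all other genes, in windows of 50 bases. An exact copy was found for 1.42% of windows in MT1E, 15.7% in MT1M, 6.55% in MT1F, 6.27% in MT1G, 10.3% in MT2A and 0% in MT3. In windows of 90 bases the share was 0% for each of these 6 genes. MT1X had 38.5% and 30.5% of its windows in common with another gene, all with AC026461.1, an overlapping non-coding gene annotated on the same strand. How the authors' counting treated shared reads was not given, so values of single MT1 genes carry that uncertainty. The annotation they used was not given either.

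**Figure D1:**
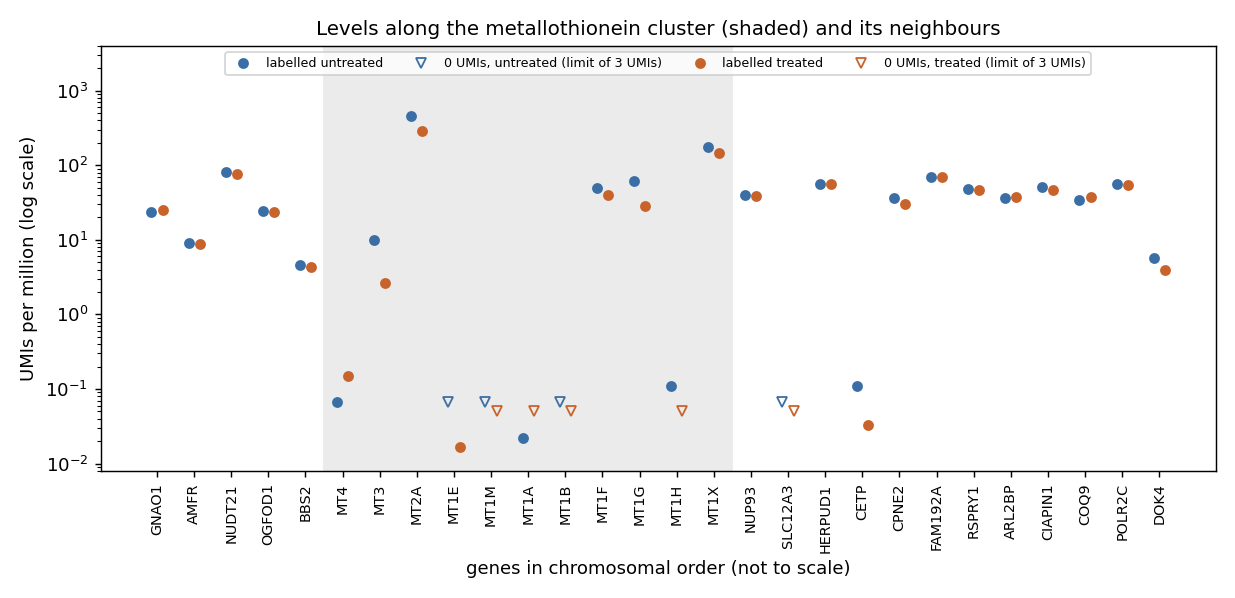
Level of each metallothionein gene (shaded) and of 17 neighbouring genes in chromosomal order, in CPM on a log scale, for the untreated-labelled library (blue) and labelled treated (orange). Triangles mark genes with 0 UMIs, drawn at the limit of 3 UMIs. MT2A and MT1X stand near the top in both libraries, MT1E to MT1B lie at or near 0, and the neighbours have closely similar values in both.

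All 5 measured genes had ratios below 1, from MT3 at 0.267 to MT1X at 0.826, and the 15 measured neighbours of the cluster had ratios between 0.693 and 1.11. MT3 had 448 UMIs in the untreated-labelled library and 158 in the treated-labelled library, a ratio of 0.267 (95% exact interval 0.221 to 0.321). MT1G, with 2821 and 1716 UMIs, had a ratio of 0.461 (0.434 to 0.489). MT2A, the main isoform by level, had 20945 and 17557 UMIs, for a ratio of 0.635 (0.622 to 0.648). MT1F had 2292 and 2385 UMIs, for a ratio of 0.788 (0.744 to 0.835). MT1X had 8061 and 8790 UMIs, for a ratio of 0.826 (0.801 to 0.851). MT1F and MT1X thus had more UMIs but a smaller share in the treated-labelled library, which had more cells and more UMIs in total.

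Of the 5 genes, 3 (MT3, MT1G and MT2A) had ratios past 1.5-fold on the lower side and 0 on the higher side. Of all 13958 genes that reached 50 UMIs, 14.9% were past 1.5-fold lower and 3.77% past 1.5-fold higher, and 52.6% had a ratio below 1. Both 1.5-fold shares were smaller among better detected genes, and the reason was not tested. At a minimum of 500 UMIs, which all 5 genes reached, 6.37% of 9717 genes lay past 1.5-fold on the lower side and 2.38% on the higher. MT3, with 606 UMIs over both libraries, stood not far above that minimum. MT3 and MT1G were also past 2-fold lower, as were 7.93% of the 13958 genes, and 0 of the 5 genes were past 2-fold higher, as were 0.695% of the 13958. With a pseudocount of 0.1 per 10000 the log2 ratios of MT3 and MT1G were -0.65 and -0.90, so that neither was past 2-fold and MT1G was the lowest. The median log2 ratio of the 5 genes was -0.66, beside -0.02 over the 13958 genes. The summed UMIs of the 7 genes went from 34567 to 30607, or from 758.7 to 508.8 CPM, a ratio of 0.671 (0.660 to 0.681). MT2A stands close to the 1.5-fold mark, and with libraries scaled by the median ratio over genes its log2 ratio was -0.58, which leaves 2 genes past it. With 1 library per group, a lower ratio cannot be told apart from any other difference between the libraries.

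Genes flanking the cluster mostly had ratios near 1. Of 17 neighbours in the table, 15 were measured, 0 were 1.5-fold apart in either direction, and their median log2 ratio was -0.04. NUDT21, a factor of messenger RNA 3′ end processing, had a ratio of 0.954 (0.913 to 0.996). NUP93, a nuclear pore gene next to MT1X, had 0.980 (0.921 to 1.04). HERPUD1, a gene of endoplasmic reticulum protein quality control, had 0.991 (0.941 to 1.04). GNAO1, a G protein gene, had 1.05 and CPNE2, a copine gene, 0.844. The extremes were DOK4, an adaptor protein gene, at 0.693 (0.578 to 0.830) and COQ9, a gene of coenzyme Q synthesis, at 1.11 (1.04 to 1.18).

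**Figure D2:**
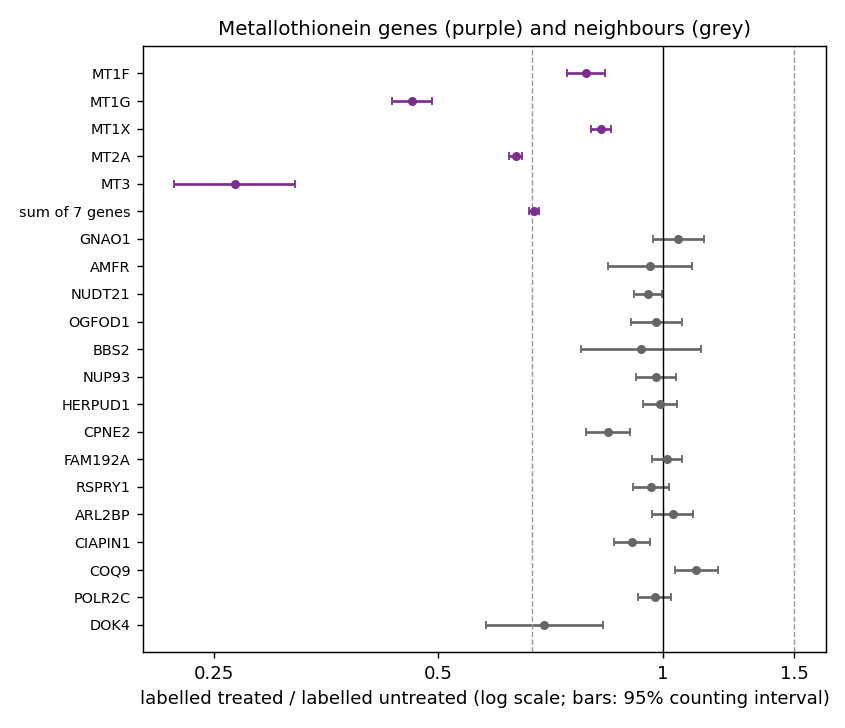
Ratio of the treated-labelled library to the untreated-labelled library on a log axis, with 95% counting intervals, for the 5 measured metallothionein genes and the sum of 7 (purple) and for 15 neighbouring genes (grey). Dashed lines mark 1.5-fold either way. The metallothionein genes lie between 0.267 and 0.826 and the neighbours between 0.693 and 1.11.

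The make-up of the metallothionein transcripts differed between the libraries as well, a comparison that the scaling of the libraries does not touch. MT2A made up 60.6% (60.1% to 61.1%) of the metallothionein UMIs in the untreated-labelled library and 57.4% (56.8% to 57.9%) in the treated-labelled library. MT1X went from 23.3% (22.9% to 23.8%) to 28.7% (28.2% to 29.2%), and MT1F from 6.63% (6.37% to 6.90%) to 7.79% (7.49% to 8.10%). MT1G went from 8.16% (7.87% to 8.45%) to 5.61% (5.35% to 5.87%), and MT3 from 1.30% (1.18% to 1.42%) to 0.516% (0.439% to 0.603%). For each MT2A transcript there were 0.385 of MT1X in the untreated-labelled library and 0.501 in the treated-labelled library. The 5 genes therefore did not differ by a common factor. The intervals of MT1F and MT1X overlap in ratio, and those of MT3, MT1G and MT2A are apart from them and from each other.

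The difference was present in cells of every depth examined. In 6 windows of UMIs per cell, from 4000 to 6000 up to 17000 and more, the summed ratio ran from 0.653 to 0.727, and in 6 of 6 its counting interval lay below 1. All 30 ratios of single genes in these windows were below 1. Those of MT2A ran from 0.605 to 0.692, of MT1G from 0.409 to 0.537, of MT3 from 0.233 to 0.416, of MT1F from 0.666 to 0.844 and of MT1X from 0.726 to 0.934. MT1X had its highest ratio in the deepest cells, of which there were 340 labelled untreated and 247 labelled treated.

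**Figure D3:**
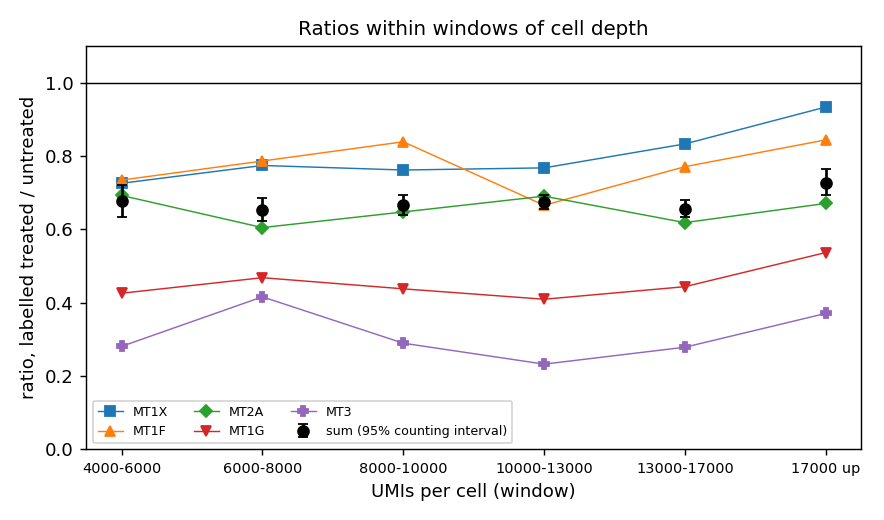
Ratio of the treated-labelled library to the untreated-labelled library within windows of UMIs per cell, for each measured gene (coloured lines) and for the sum of 7 genes (black, with 95% counting intervals). Every point lies below 1, and MT3 and MT1G lie lowest in all 6 windows.

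Proliferation lists lay above the metallothioneins in their ratios, with median log2 ratios of 0.17 over 40 S phase genes and 0.30 over 54 G2/M genes. E2F8 and EXO1 were highest in the S list at 1.83 and 1.64, and TIPIN and RPA2 lowest at 0.824 and 0.843. MKI67 and TOP2A both had 1.69 at the top of the G2/M list, and CCNB2 and HN1 had 0.769 and 0.844 at its foot. Metallothioneins were therefore also compared within bins of these lists. Cells were first thinned to 4351 UMIs each, so that detection did not depend on depth, which left 3892 untreated-labelled cells and 6012 labelled treated. They were then divided into 4 bins by the summed counts of each list, over both libraries. The ratio of mean metallothionein UMIs was below 1 in 8 of 8 bins. It ran from 0.761 (0.725 to 0.798) in the bin with the fewest S phase transcripts to 0.588 (0.559 to 0.618) in the next to highest bin of the same list. By G2/M transcripts it ran from 0.593 (0.564 to 0.623) in the lowest bin to 0.714 (0.679 to 0.751) in the highest. In the untreated-labelled library the mean was 2.93 metallothionein UMIs per cell in the lowest S phase bin and 3.57 in the highest, and in the treated-labelled library 2.23 and 2.18.

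Most cells of both libraries carried metallothionein transcripts, and the lower level was spread over the population. At 4351 UMIs per cell, 90.4% (89.5% to 91.3%) of untreated-labelled cells and 83.7% (82.8% to 84.6%) of treated-labelled cells had a UMI of at least 1 of the 7 genes. Unthinned, the shares were 96.0% and 93.3%. The mean was 3.30 UMIs per thinned cell (SD over cells 2.52) in the untreated-labelled library and 2.17 (SD 1.85) in the treated-labelled library, with medians of 3 and 2. Cells with 6 to 9 metallothionein UMIs made up 14.8% and 4.46%, and cells with 10 or more made up 1.98% and 0.25%. The distribution as a whole stood lower in the treated-labelled library.

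By gene, MT2A had a UMI in 77.5% (76.2% to 78.8%) of thinned untreated-labelled cells and 63.8% (62.6% to 65.0%) of those labelled treated, and unthinned in 89.9% and 80.5%. MT1X had a UMI in 50.8% and 45.0%, MT1G in 22.6% and 11.1%, MT1F in 19.6% and 15%, and MT3 in 3.85% and 1.06%. Unthinned, these 4 genes had shares of 77.2% and 65.7%, 42.0% and 20.4%, 39.7% and 28.3%, and 9.52% and 2.25%. Free RNA could not be gauged, since a single cell line gives no cell type that should lack the genes. MT3 had at most 4 UMIs in a cell and MT1F at most 6, whereas MT2A reached 30.

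**Figure D4:**
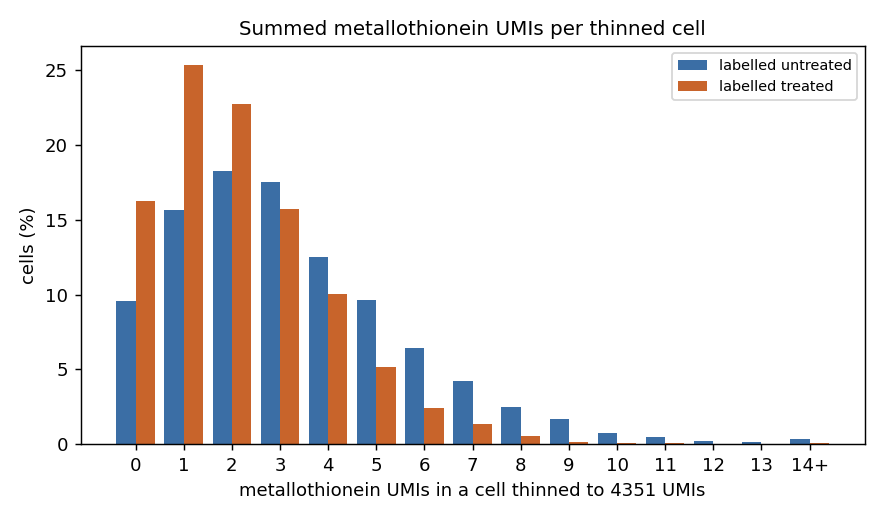
Share of cells (percent) by the number of metallothionein UMIs after thinning each cell to 4351 UMIs, for 3892 untreated-labelled cells (blue) and 6012 labelled treated (orange). The last bar pools cells with 14 or more UMIs. The treated bars are higher at 0, 1 and 2 UMIs and lower in each bar from 3 UMIs on, although the single highest cell, with 40 UMIs, was labelled treated.

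Spread of the summed metallothionein UMIs among cells exceeded what random sampling of transcripts gives. The variance of the summed UMIs was 1.92 times the mean in the untreated-labelled library and 1.57 times in the treated-labelled library, where random sampling at one level would give 1. Among single genes MT2A had the largest value, 1.66 and 1.47, followed by MT1X with 1.38 and 1.27 and MT1G with 1.23 and 1.14. MT3 had 1.12 and 1.02 and MT1F 1.09 and 1.04, so that in the treated-labelled library both lay close to 1. No interval was computed for these values. The treated-labelled sum includes a thinned cell with 40 metallothionein UMIs, and its part in the value of 1.57 was not tested. A few cells were far above the rest. The richest cell labelled treated held 51 metallothionein UMIs among 6322, of which 29 were MT2A and 22 MT1X and 0 were MT1F, MT1G or MT3. The richest pair labelled untreated held 50 each. One of them had 29 MT1X, 15 MT1G and only 6 MT2A UMIs. The other had 21 MT2A, 17 MT1X, 9 MT1G and 3 MT1F UMIs. The genes that led thus differed from 1 rich cell to the next.

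At 20 or more metallothionein UMIs per 10000, a bound set after the values were seen, there were 78 untreated-labelled cells, 1.89% (1.49% to 2.35%), and 19 labelled treated, 0.284% (0.171% to 0.444%). These cells were shallow, with median totals of 6461 and 6263 UMIs against 11210 and 8586 in the rest, and in shallow cells few UMIs reach such a level. Without the 10 richest cells of each library the summed log2 ratio was -0.57, beside -0.58 with them.

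Co-expression of the genes across cells was weak. In thinned cells, Pearson's r between pairs of the 5 measured genes ran from 0.0112 to 0.150 over 10 pairs in the untreated-labelled library (3892 cells) and from 0.000799 to 0.125 in the treated-labelled library (6012 cells). The cells of a library share one preparation and the counts are sparse, so these are descriptions. MT2A and MT1X had the highest r in both libraries, 0.150 and 0.125, with Spearman's rho of 0.120 and 0.0638. Part of this rested on the few rich cells: without the 10 richest of each library, r was 0.113 and 0.0560. MT1G with MT2A had r of 0.140 and 0.0716, and 0.139 and 0.0636 without them.

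Detection gave the same picture in plain counts. MT1G had a UMI in 24.7% of untreated-labelled cells that had MT2A and in 15.3% of those without it, against 11.9% and 9.79% in the treated-labelled library. MT2A had a UMI in 91.3% of untreated-labelled cells with MT3 and in 77.0% of those without, whereas in the treated-labelled library these shares were 59.4% and 63.9%, from only 64 cells with MT3. Both genes of a pair were found together more often than the product of their shares in 10 of 10 pairs in the untreated-labelled library and in 9 of 10 in the treated-labelled library. The excess was small. An interval on the joint count alone, with the expected share held fixed, lay above 1 in 3 and 2 pairs. The expected share comes from the same cells, so that interval does not measure departure from independence. Cells with 2 or more of the genes made up 58.8% and 42.0%, where independent detection would give 59.9% and 42.1%. Cells with none were 1.45 and 1.1 times as frequent as independence would give, and cells with 4 of the genes 1.52 and 1.77 times, from 134 and 59 cells.

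**Figure D5:**
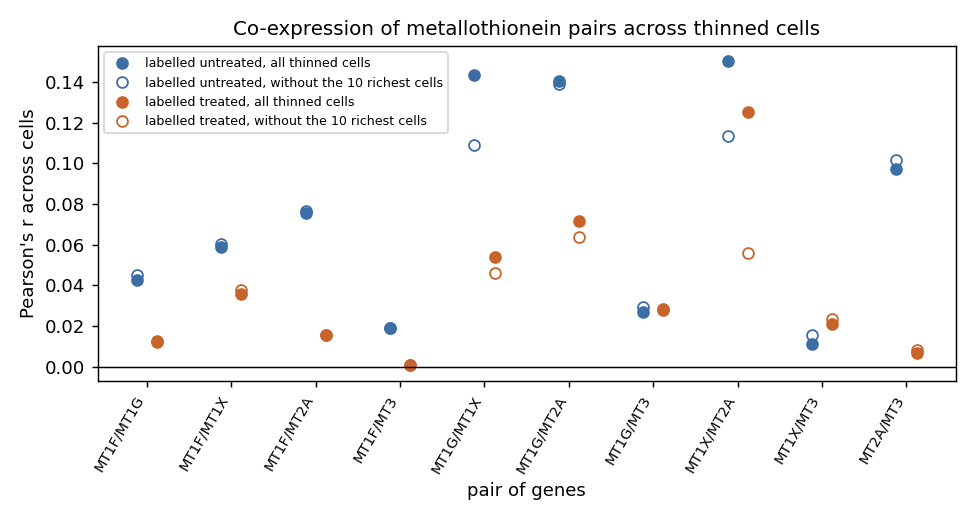
Pearson's r across thinned cells for the 10 pairs of measured metallothionein genes, in the untreated-labelled library (blue) and labelled treated (orange). Filled points use all thinned cells and open points leave out the 10 cells richest in metallothionein UMIs of each library. All values lie at or below 0.150, and MT1X/MT2A falls most when the rich cells are left out.

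Each member's r with the sum of the other members was set beside the r of 6630 other genes with the same sum, taking genes with a UMI in 5% or more of thinned cells of both libraries. MT2A had r of 0.210 and 0.134 and MT1X 0.184 and 0.138, with 0 of the other genes above either in either library. MT1G had 0.183 and 0.0863, with 0 and 3 other genes above it. MT1F had 0.0938 and 0.0327, with 42 and 284 above, and MT3 had 0.0852 and 0.0212. MT3 itself was in under 5% of thinned cells in both libraries, so its r is not ranked against these better detected genes. All these ranks include the few rich cells and were not recomputed without them. Without the 10 richest cells of each library, pairs of members had r of at most 0.139 and 0.0636.

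The 10 non-member genes most like the summed metallothioneins over cells were ranked by the lower r of the 2 libraries, and r over the 6630 genes had a 1st to 99th percentile range of -0.0811 to 0.0816 in the untreated-labelled library and -0.0428 to 0.0482 in the treated-labelled library. First was HIST1H4C, a histone H4 gene transcribed during DNA synthesis, with r of 0.149 and 0.0946. Without the 10 richest cells of each library its r was 0.162 and 0.105. In the 403 untreated-labelled cells at or above the 90th percentile of metallothionein UMIs, HIST1H4C averaged 11.4 UMIs. It averaged 4.66 in the 982 cells at or below the 10th percentile. In treated-labelled cells it averaged 22.7 in the upper 1195 cells against 16 in the lower 979. Tied counts make these groups unequal in size within and between the libraries. DBI, an acyl-CoA-binding protein gene, had r of 0.143 and 0.0796. SCGB2A1, a secretoglobin gene, had 0.112 and 0.0796, and HIST1H1C, a linker histone gene, had 0.111 and 0.0751. MKI67, a marker of dividing cells, H2AFZ, a variant histone, FTH1, the ferritin heavy chain, the mitochondrial MT-CO1, the mitotic kinase gene AURKB and the linker histone gene H1FX completed the 10. Their levels did not move together between the libraries, since HIST1H4C had a ratio of 2.56 (2.54 to 2.58) and SCGB2A1 one of 0.518 (0.506 to 0.529).

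The opposite end held 5 genes: EIF4A1, HSP90AB1, DDX5, HSPA8 and MARCKSL1. EIF4A1, a helicase of translation initiation, had r of -0.158 and -0.106. HSP90AB1 and HSPA8, both chaperone genes, had -0.126 and -0.0805, and -0.0793 and -0.0763. Over a list of 15 heat shock genes the summed counts had r of -0.168 and -0.0878 with the metallothioneins, the largest in size of 8 lists compared in the untreated-labelled library and in the treated-labelled one. That list holds HSP90AB1 and HSPA8, so its value partly repeats theirs. The lists also differ in level, from a mean of 0.763 UMIs per thinned untreated-labelled cell for glucocorticoids to 45.9 for oxidative stress. Sizes of r are therefore not like for like between lists. The S phase list had 0.0994 and -0.0155 and the G2/M list 0.00652 and 0.0763, so neither had a like value in both. The zinc list had 0.00251 and -0.000764, the copper list -0.0210 and 0.00447 and the oxidative stress list -0.0138 and 0.0288. The glucocorticoid list had 0.00423 and -0.0237 and the hypoxia list -0.0610 and -0.0148. In sparse counts such values are no more than a description.

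Other genes of zinc handling lay near the median of all genes. Of 19 measured genes of zinc sensing and transport, 2 were past 1.5-fold on the lower side and 0 on the higher, with a median log2 ratio of -0.05. Over all 13958 genes with 50 or more UMIs the shares were 14.9% lower and 3.77% higher. Those shares also stand beside the counts of the lists below, which are small and are descriptions only. MTF1, the zinc sensor that drives metallothionein transcription, had 15.4 and 14.2 CPM and a ratio of 0.924 (0.835 to 1.02). SLC30A1, a zinc exporter that is also an MTF1 target, had 3.97 and 4.6 CPM and a ratio of 1.16 (0.958 to 1.41). The lowest were SLC30A3, the zinc transporter of synaptic vesicles, at 0.318 (0.234 to 0.427), and SLC39A4, a zinc importer, at 0.653 (0.606 to 0.703). The highest were SLC30A7 and SLC30A5, both transporters of the secretory pathway, at 1.26 and 1.24.

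Copper genes were mixed, with 1 of 13 measured genes past 1.5-fold on the lower side, 0 on the higher and a median of -0.01. CCS, the copper chaperone of superoxide dismutase, had a ratio of 0.629 (0.572 to 0.692) and CUTC, a copper-binding protein gene, one of 0.773. COX17, a copper chaperone of mitochondria, was the highest at 1.36 (1.33 to 1.39), followed by SLC31A2, a copper transporter gene, at 1.23.

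Genes of the oxidative and heavy metal response had a median of -0.26, with 2 of 13 measured genes past 1.5-fold on the lower side and 0 on the higher. HMOX1, the heme oxygenase gene induced by heavy metals and oxidants, had 268 and 55 UMIs, for a ratio of 0.155 (0.114 to 0.208). NQO1, a quinone reductase gene, had a ratio of 0.639 (0.539 to 0.756). KEAP1, the repressor of the oxidative response, was highest at 1.17, followed by GCLM, a gene of glutathione synthesis, at 1.12.

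Glucocorticoid targets were examined because MT2A is one. Of 9 measured genes, 1 was past 1.5-fold on the lower side and 0 on the higher, with a median of -0.17. The receptor gene NR3C1 had a ratio of 0.798 (0.738 to 0.864). SGK1, a kinase gene, was the lowest at 0.382 (0.340 to 0.429), followed by FKBP5, a cochaperone of the receptor, at 0.678. CEBPD and DUSP1, a transcription factor and a phosphatase gene, were highest at 1.40 and 1.29.

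Heat shock genes had a median of -0.13, with 1 of 14 measured genes past 1.5-fold on the lower side and 0 on the higher. HSPB1, a small heat shock protein gene, was that gene at 0.415 (0.403 to 0.428), followed by HSP90AA1, a cytosolic chaperone gene, at 0.855. HSPA1B and DNAJB1, an inducible chaperone gene and its cochaperone, were highest at 1.25 and 1.12. Hypoxia genes had a median of -0.13, with 4 of 17 past 1.5-fold on the lower side and 1 on the higher. The shares over all 13958 genes were 14.9% and 3.77%. EGLN3, an oxygen-sensing hydroxylase gene, had a ratio of 0.394 and DDIT4, an inhibitor of growth signalling, 0.429, while KDM3A, a histone demethylase gene, had 1.55 and EGLN1, another hydroxylase gene, 1.34. Each of these 6 list medians, from zinc to hypoxia, lay nearer to 0 than the -0.66 of the 5 metallothionein genes. A median near or below that value was not particular to metallothioneins. Marker lists with only 2 or 3 measured genes had medians of -0.64 (keratinocyte), -0.97 (myeloid), -1.13 (fibroblast), -1.29 (B cell) and -2.29 (melanocyte). The Merkel list had 0.02, and the endothelial list, with 1 measured gene, had 0.009.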

How the data were processed

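Per the submitters' processing notes, Cell Ranger, Seurat and the build hg19 were used; versions, cell filters and annotation are not given in the sources used here. Expression came as 1 table that the authors deposited, of 32742 genes and 10816 cells on a natural log scale. Back-transformed, each cell summed to 10000, and taking the smallest value as 1 UMI made 100% of values whole within a relative tolerance of 1e-06. Recovered UMIs were summed per library and divided by its total (CPM); 0 other columns of values were left unused. Ratios have 95% Clopper-Pearson intervals on a gene's share of UMIs. A count of 0 was put at its limit of 3. For per-cell values, each cell was thinned at random to 4351 UMIs, which is the depth below which 10% of the shallower library's cells lie. This left out 245 cells labelled untreated and 667 labelled treated. In all, 48 barcodes were shared by the 2 libraries and stayed in, and doublets were not called. No cell filter was added.

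The members, gene lists and alternatives were chosen with earlier results of these data known. Genes named were all metallothioneins, the 2 highest and 2 lowest measured of each pathway list, MTF1, SLC30A1, HMOX1 and NR3C1, and the 10 most and 5 least like genes by r. NUDT21, NUP93, HERPUD1, KRT20, CDKN1A and the markers at 0 were named outside this rule, after their values were seen. One marker gene is not reported here. The 500-UMI minimum, the depth windows, the cell cycle bins and the removal of rich cells from r were added after seeing the data. Gene order, promoters and transcripts came from RefSeq GRCh38.p14 and GENCODE 29, and all 28 genes of the region were matched by name. The ratio and thinning steps were tested on simulated data. Python 3.11.15, numpy 2.4.6, scipy 1.17.1 and pandas 2.3.3 were used.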

Additional observations from a re-analysis of the deposited data

How the results depend on the processing

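No paired analysis was possible because each group had 1 library, and for the same reason no library could be left out. All 60 values of single genes over 12 alternatives stayed below 0 on the log2 scale. Not all of these alternatives could change a value. Those with another UMI minimum repeat the main values and counts, since the measured genes had over 500 UMIs each and MT1E and MT1M almost none. Nor can a pseudocount added to both libraries turn a sign. The number of genes at least 1.5-fold lower was 2 or 3 over 13 alternatives, with 2 under scaling by the median ratio over genes and under a 2-fold mark, and 0 were higher in each. Scaling by the median ratio gave a median log2 ratio of -0.58 and a summed log2 ratio of -0.50, against -0.66 and -0.58; it rests on all genes with at least 1 UMI in each library, whose median log2 ratio by library totals was -0.08, whereas genes with at least 50 UMIs had a median of -0.02. Cells of 7000 to 12000 UMIs gave a median of -0.62, and there the cause was not tested. A pseudocount of 0.1 per 10000, which by construction shrinks weakly expressed genes, moved MT3 from -1.90 to -0.65 and MT1G from -1.12 to -0.90, and neither was then past 2-fold.

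The share of cells with a metallothionein UMI depends on depth by construction. Thinned to 8578 UMIs it was 97.9% labelled untreated and 96.7% labelled treated, and without thinning 96.0% and 93.3%. That depth is the median of the treated-labelled library, and cells below it were left out. The shares at 8578 UMIs therefore rest on fewer and deeper cells, and are not set against the others on depth alone. Without thinning, the observed over expected share of cells with 2 or more of the genes was 0.940 and 0.963, against 0.981 and 0.998 in thinned cells; the cause was not tested. Another random seed, removal of the deepest 5% of cells and leaving out shared barcodes kept the 4 per-cell values within their counting intervals.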
